A study of Homo sapiens with 6 samples.

Results

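Antisense transcripts are RNAs read from the strand opposite to a known gene, and their symbols join the name of that sense gene to the suffix AS and a number. The 213 antisense genes described here were chosen by symbol and by level, as those with such a suffix and 60 or more counts summed over the 6 libraries. They carry 212 symbols, since DNAJC9-AS1 stands for 2 gene IDs, and they are part of 26613 genes with a count. In all, 445 genes with such a suffix had a count and 215 reached the level. OIP5-AS1 and EPB41L4A-AS1 were left out by the rule. Just inside it lay MSANTD2-AS1, DMTF1-AS1, TNRC6C-AS1 and GDNF-AS1 with 61 counts each, and just outside it PTPRD-AS1 with 58 counts and RAMP2-AS1 and SH3RF3-AS1 with 57 counts each. The rule uses the symbol, the summed counts and those 2 exclusions, and no value of the comparison of mimic with mock.

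Antisense RNAs are often short-lived and nuclear. Many start from the same open chromatin as a coding gene and run the other way, some lie within its introns, and some overlap its exons tail to tail. A few are known to act on their sense gene, such as CDKN2B-AS1 (also called ANRIL) at the INK4 locus, but for most no function is known. A microRNA can lower an antisense RNA as it lowers a messenger RNA, by pairing of its seed (bases 2 to 8) with a complementary site, and it can also move an antisense RNA without any site through its effect on other genes.

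The cells were 293T, an adherent line derived from human embryonic kidney cells that takes up transfected nucleic acid readily. One group, mimic, had 3 cultures transfected with a miR-941 duplex at 10 nM by cationic lipid 24 h after plating, and the other, mock, had 3 cultures transfected in parallel with a scrambled oligonucleotide, for which no dose is given. The labels call the replicates independent. Both groups are the same cell line, so the mimic adds the microRNA to one kind of cell at 1 dose, and the time of harvest is not stated by the labels. Total RNA was depleted of ribosomal RNA and sequenced from 1 end over 100 bases.

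Libraries held 7651046, 7168077 and 6401918 counts in the mimic group and 7405330, 7178783 and 6079420 counts in the mock group. At that depth 3 counts are worth 0.392 to 0.493 CPM (counts scaled to a common library size). VIM, KRT8, KRT18, NEFM and PAX2, which embryonic kidney lines of this kind express, were present in every library, PTPRC was at 0, and CDH5, ALB, COL1A2, COL3A1 and MYH7 stayed under 0.5 CPM. COL1A1 was at 36.1 to 41.1 CPM in the mimic group and 35.4 to 38.0 CPM in the mock group, and DES was at 1.40 to 1.85 CPM in the mimic group and 1.53 to 1.76 CPM in the mock group.

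The sequences shown first are the microRNA and its complements in TP73-AS1, the antisense RNA with the most of them. The mature miR-941 is encoded at 5 loci on chromosome 20 (RefSeq, GRCh38.p14), and capitals mark the seed:
miR-941: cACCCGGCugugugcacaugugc
Its complement, GCCGGGT, was searched in every annotated transcript of GENCODE release 29. In the 6358-base transcript TP73-AS1-204, from chromosome 1, it occurred 10 times. Below are 6 of these sites, 5′ to 3′ on the strand of the transcript, with the seed complement in capitals:
TP73-AS1 site 1, base 30: gccggggatggGCCGGGTgcctggtgggt
TP73-AS1 site 2, base 2190: agaggtcatcaGCCGGGTtgattgtgtgg
TP73-AS1 site 3, base 2334: agagatcatcaGCCGGGTtgattctacag
TP73-AS1 site 4, base 2370: agaggtcgtcaGCCGGGTtgattgtgcgg
TP73-AS1 site 5, base 2406: agagatcatcaGCCGGGTtgattgtgcgg
TP73-AS1 site 10, base 3086: agaggtcgtcaGCCGGGTtgattccgcag
Site 1 stands alone near the start of the transcript. The other 9 sites lie within 903 bases, in near-identical surroundings, and 7 of the 8 distances between neighbours among them are multiples of 36 bases, the period of a tandem repeat. None of the 10 sites is followed by A.

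TP73-AS1, the RNA antisense to the p53-family transcription factor gene TP73, fell. It was at 88.2, 89.1 and 94.0 CPM in the mimic libraries, against 104, 111 and 120 CPM in the mock libraries. The mimic libraries were all below the mock libraries. The mean was 90.4 ± 3.09 CPM in mimic and 111 ± 7.88 CPM in mock (SD, n = 3 each), and the log2 fold change was -0.30 ± 0.06 (SE, adjusted p = 0.000129). This p and those below come from the quasi-likelihood test of edgeR, adjusted by Benjamini and Hochberg's method over all 15607 genes tested, and "rose", "fell" and "past the threshold" mean an adjusted p under 0.05. It was the smallest p among the antisense genes. TP73 itself was at 29.5, 32.3 and 32.3 CPM in mimic and 35.5, 26.3 and 33.4 CPM in mock, with a log2 fold change of -0.02 ± 0.09 (adjusted p = 0.936). The libraries of the groups overlapped for TP73. TP73-AS1 stood at 320% of the CPM of TP73 and 223% of its level per kilobase of exon.

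A site for the miR-941 seed was found in 27 of the 213 antisense genes (12.7%), against 19.7% of 15084 tested genes with an annotated transcript and 21.5% of protein-coding genes. These shares were not matched for the length or number of transcripts, so the lower share cannot be read as a trait of antisense genes. The 26 others with a site had at most 1 in any single transcript, so that TP73-AS1 was the member with more than 1 in a transcript. Among the 15084 genes it ranked 1st by the number of sites in a single transcript, followed by COL18A1 and COL7A1 with 5 each. These 2 did not fall: COL7A1 rose (log2 fold change 0.34, adjusted p = 0.00127) and COL18A1 had a log2 fold change of 0.13 (adjusted p = 0.452). This count per gene was made after the values had been seen. Of the 27 with a site, none rose and 1, TP73-AS1, fell, and their median log2 fold change was 0.01. Among those without a site 6 rose and 2 fell, with a median of 0.10. Over all genes, 237 rose and 221 fell of 2966 with a site, with a median of 0.003, and 801 rose and 730 fell among those without one, with a median of 0.001. Of 29 annotated TP73-AS1 transcripts 12 held a site, and which of them these cells make cannot be read from counts per gene. Whether the sites and the fall are connected was not tested.

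**Figure D1:**
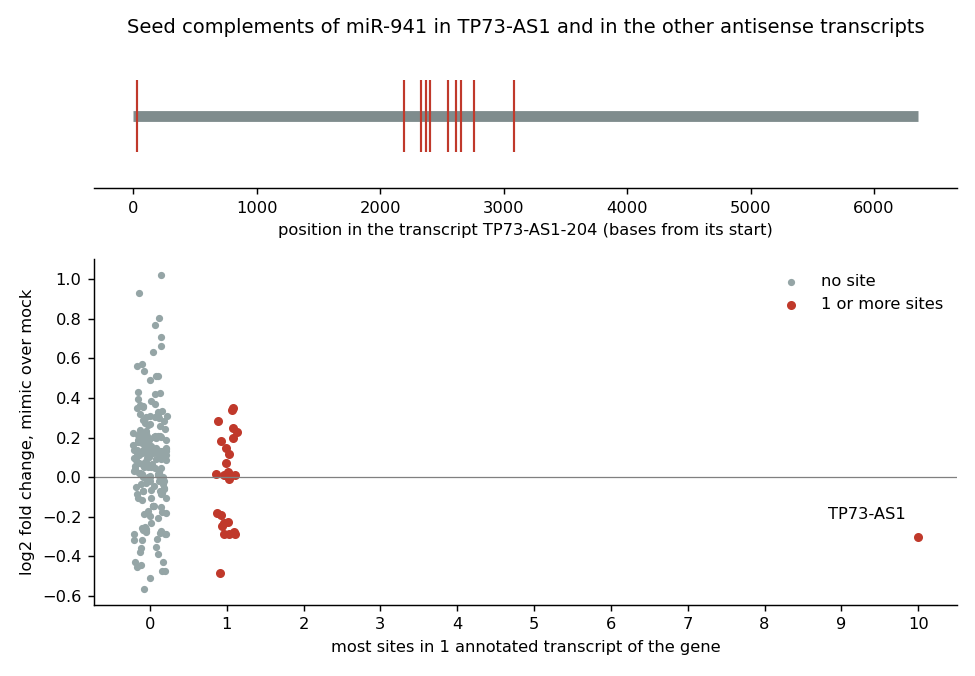
Top, the transcript TP73-AS1-204 as a bar, with its 10 seed complements of miR-941 as vertical lines at their distance in bases from the transcript start. Bottom, log2 fold change (mimic over mock) of the 213 antisense genes against the most sites in 1 annotated transcript: 26 genes have 1 site, TP73-AS1 has 10, and the grey points have none (small sideways shifts separate the points).

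Of the 213 antisense genes, all of which had a count in every library and were tested, 6 rose and 3 fell, which is 4.23%. Over all genes tested 13.0% were past the threshold, 6.80% risen and 6.19% fallen. The antisense genes were low, with a median of 4.57 CPM: 114 had a mean under 5 CPM, 67 lay between 5 and 20 CPM and 32 were at 20 CPM or more. In the highest bin 6 of 32 (18.75%) were past the threshold, against 18.7% of all genes at that level. In the middle bin it was 1 of 67 (1.49%) against 6.58%, and in the lowest 2 of 114 (1.75%) against 2.17%. Read against genes of their own level, the share was close to the background at 20 CPM or more and under 5 CPM, and below it in between. The mimic and mock libraries did not overlap in 32 antisense genes (15.0%), against 28.3% of all genes, shares that were not matched for level.

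What a count for an antisense gene holds bears on every value here. In GENCODE release 29, 166 of the 213 genes overlapped the exons of their sense partner on the opposite strand, 30 overlapped it in introns only, 12 lay head to head within 5 kb, HILPDA-AS1 ran on the same strand as its partner, and 4 had no counted partner. How reads over such an overlap were counted is not stated and was not tested, but the counts of some pairs bear on it. MIF-AS1 and MIF, the gene of the macrophage migration inhibitory factor, overlap over 687 exon bases on opposite strands and differed by at most 2 counts in any library. MIF-AS1 had 3774, 3713 and 2796 counts in mimic and 2544, 2621 and 2810 counts in mock, and MIF had 3772, 3711 and 2796 counts in mimic and 2544, 2620 and 2808 counts in mock. Such equality, within 5% in every library, was found in 2 of 2065 opposite-strand overlapping pairs of genes, against 189 of 1085 same-strand pairs. Among 53 genes that lie at least 95% inside exons on the opposite strand, 50 were not above their host. Their counts were a median of 1.82 times those that host reads spread evenly would give over the overlap. A nested gene can lie below its host under either way of counting, so the 50 do not decide how reads were counted.

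If the reads of a sense gene were spread evenly over its exons, those over the overlap would amount to a median of 38.5% of the counts of its antisense gene, over 167 pairs with an exon overlap, HILPDA included. They would be 50% or more in 74 pairs and 100% or more in 30. For SRRM2-AS1 this share came to 826%, which exceeds the counts there are, so the estimate of even, shared reads does not hold for every pair. Whether uneven coverage or the way of counting lies behind this was not tested. For TP73-AS1, which overlaps 633 exon bases of TP73, even reads of TP73 there would be 2.93% of its counts. Shares for the other genes past the threshold stand beside them below.

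HILPDA-AS1, CCDC18-AS1, SLC7A11-AS1, TMPO-AS1, CCDC86-AS1 and THAP9-AS1 rose. TMPO-AS1, which starts 910 bases from the gene of the nuclear lamina protein LAP2, was at 44.0, 44.0 and 48.3 CPM in mimic and 38.0, 34.8 and 35.1 CPM in mock. All mimic libraries were above all mock libraries, and the log2 fold change was 0.33 ± 0.08 (adjusted p = 0.00187). Its partner TMPO was at 325 ± 12.5 CPM in mimic and 316 ± 3.03 CPM in mock, with a log2 fold change of 0.04 (adjusted p = 0.644), and reads of TMPO over the overlap would be 65.2% of the antisense counts. TMPO-AS1 was the single one of the 9 whose ratio to its partner did not overlap between the groups.

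CCDC18-AS1 was at 13.5, 12 and 14.6 CPM in mimic and 8.55, 8.06 and 10.5 CPM in mock, with no overlap and a log2 fold change of 0.57 ± 0.15 (adjusted p = 0.00367). Its partner CCDC18, which codes for a coiled-coil protein, had a log2 fold change of 0.16 (adjusted p = 0.126). CCDC18-AS1 also overlaps 138 exon bases of DR1, a repressor of transcription that binds TBP, and DR1 went the other way, at 92.0 ± 3.02 CPM in mimic and 111 ± 3.49 CPM in mock (log2 fold change -0.27, adjusted p = 0.000323). Even reads of CCDC18 and DR1 over the overlaps would be 7.30% and 11.5% of its counts.

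THAP9-AS1 was at 39.3, 37.6 and 37.6 CPM in mimic and 31.6, 32.4 and 29.5 CPM in mock, without overlap (log2 fold change 0.29 ± 0.08, adjusted p = 0.0132). Its adjusted p was 0.0714 without the first mimic library and 0.0772 without the third mock library. THAP9, a gene derived from a DNA transposase that starts 276 bases away, was far lower, at 8.08 CPM in mimic and 7.01 CPM in mock, and did not pass the threshold (log2 fold change 0.20, adjusted p = 0.516). THAP9-AS1 also shares 482 exon bases on its own strand with SEC31A, a subunit of the COPII vesicle coat, whose log2 fold change was 0.10 (adjusted p = 0.257) and whose even reads there would be 18.8% of its counts.

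HILPDA-AS1 was at 7.78, 6.85 and 3.31 CPM in mimic and 3.66, 3.06 and 2.79 CPM in mock. The groups overlapped, since the third mimic library lay among the mock libraries. Its log2 fold change was 0.93 ± 0.24 (adjusted p = 0.00573), and without the first mimic library it was 0.69 with an adjusted p of 0.107. HILPDA, the hypoxia-induced lipid droplet protein, was also highest in the first and second mimic libraries, with 48.5, 42.7 and 16.1 CPM in mimic and 29.3, 17.7 and 17.7 CPM in mock, the third mimic library being the lowest of all (log2 fold change 0.75 ± 0.50, adjusted p = 0.461). Without the third mimic library HILPDA rose (adjusted p = 0.0321), and without the first its adjusted p was 0.745. The antisense gene shares 186 exon bases with it on the same strand, and even reads there would be 56.5% of its counts.

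In 3 pairs both genes passed the threshold, each time in the same direction. SLC7A11-AS1 was at 3.30, 3.91 and 3.46 CPM in mimic and 2.17, 2.36 and 1.48 CPM in mock, and its groups did not overlap (log2 fold change 0.80 ± 0.28, adjusted p = 0.0456). SLC7A11, the cystine and glutamate exchanger of the plasma membrane, was at 30.1, 24.7 and 24.7 CPM in mimic and 19.9, 22.4 and 18.4 CPM in mock (log2 fold change 0.39 ± 0.10, adjusted p = 0.00666). Even reads of SLC7A11 over the overlap of 865 bases would be 75.3% of the antisense counts. The call of SLC7A11-AS1 was lost whichever single library was left out, with adjusted p between 0.0600 and 0.188, and that of SLC7A11 without the first mimic or the third mock library (adjusted p = 0.134 and 0.0652).

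CCDC86-AS1 was at 33.5, 27.8 and 35.9 CPM in mimic and 24.8, 27.1 and 25.7 CPM in mock, again without overlap (log2 fold change 0.32 ± 0.10, adjusted p = 0.0159). CCDC86, a nucleolar protein, was at 128 ± 5.58 CPM in mimic and 111 ± 3.51 CPM in mock (log2 fold change 0.21 ± 0.05, adjusted p = 0.00497). Exons of CCDC86 cover 64.4% of those of CCDC86-AS1, and even reads there would be 38.4% of its counts. The adjusted p of CCDC86-AS1 lay between 0.0599 and 0.0938 when either the first or the third library of either group was left out.

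SLC25A5-AS1 was the fallen one of the 3 pairs, at 43.6, 41.6 and 32.3 CPM in mimic and 51.7, 45.9 and 46.7 CPM in mock. The groups did not overlap, with the third mimic library lowest (log2 fold change -0.29 ± 0.08, adjusted p = 0.0148). Without that library the adjusted p was 0.148, with a log2 fold change of -0.18, and without the first mock library it was 0.131. SLC25A5, the ADP/ATP carrier of the inner mitochondrial membrane, was at 308, 291 and 284 CPM in mimic and 347, 325 and 323 CPM in mock (log2 fold change -0.17 ± 0.05, adjusted p = 0.00781, and 0.108 without the first mock library). Even reads of SLC25A5 over the overlap of 227 bases would be 108% of the antisense counts.

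This pair is shown by sequence because 1 of 3 RefSeq promoter windows of SLC25A5-AS1 shares 281 of its bases with that of SLC25A5 on the other strand, with start sites 182 bases apart. Windows run from 250 bases before to 50 bases after the start (RefSeq, GRCh38.p14), and capitals mark the motif TATAAA read on either strand:
SLC25A5-AS1, chrX:119468213-119468512, minus strand: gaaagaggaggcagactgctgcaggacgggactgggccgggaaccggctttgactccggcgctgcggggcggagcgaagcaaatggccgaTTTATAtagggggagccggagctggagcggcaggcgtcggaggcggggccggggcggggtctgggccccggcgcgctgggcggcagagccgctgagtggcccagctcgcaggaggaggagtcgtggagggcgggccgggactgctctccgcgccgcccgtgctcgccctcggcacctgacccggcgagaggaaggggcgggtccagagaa
SLC25A5, chrX:119468194-119468493, plus strand: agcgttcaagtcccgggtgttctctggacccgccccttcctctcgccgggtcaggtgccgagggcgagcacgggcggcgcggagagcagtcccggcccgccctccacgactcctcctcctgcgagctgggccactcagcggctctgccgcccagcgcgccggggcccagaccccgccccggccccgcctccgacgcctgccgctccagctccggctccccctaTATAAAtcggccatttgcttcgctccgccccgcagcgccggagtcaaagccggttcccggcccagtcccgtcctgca
Of 156 antisense genes with a window, 10 (6.41%) held TATAAA on either strand, against 10.4% of 163 sense partners and 14% of 27305 genes with a window. GGGCGG, also searched on both strands, was in 61.5% of antisense genes, 76.1% of partners and 48.3% of all genes. Of 136 pairs with windows for both genes, 49 had windows that overlap on opposite strands. Over those pairs none of the 50 antisense genes rose and 2 fell, while 2 partners rose and 4 fell. That is 4% of the antisense genes and 12.2% of the partners, the partners being near the 13.0% of all genes.

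PCBP1-AS1 and TP73-AS1 fell without their partners. PCBP1-AS1 was at 98.4, 98.2 and 98.9 CPM in mimic and 110, 111 and 112 CPM in mock, the tightest groups of the 9, without overlap (log2 fold change -0.17 ± 0.06, adjusted p = 0.0279). PCBP1, a poly(C)-binding protein that regulates messenger RNAs, was at 245, 236 and 240 CPM in mimic and 266, 256 and 258 CPM in mock, which do not overlap either, with a log2 fold change of -0.11 ± 0.05 (adjusted p = 0.108). Even reads of PCBP1 over the overlap would be 125% of the antisense counts, and the adjusted p of PCBP1-AS1 passed 0.05 when any single library but the third mimic one was left out (0.0619 to 0.0930).

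**Figure D2:**
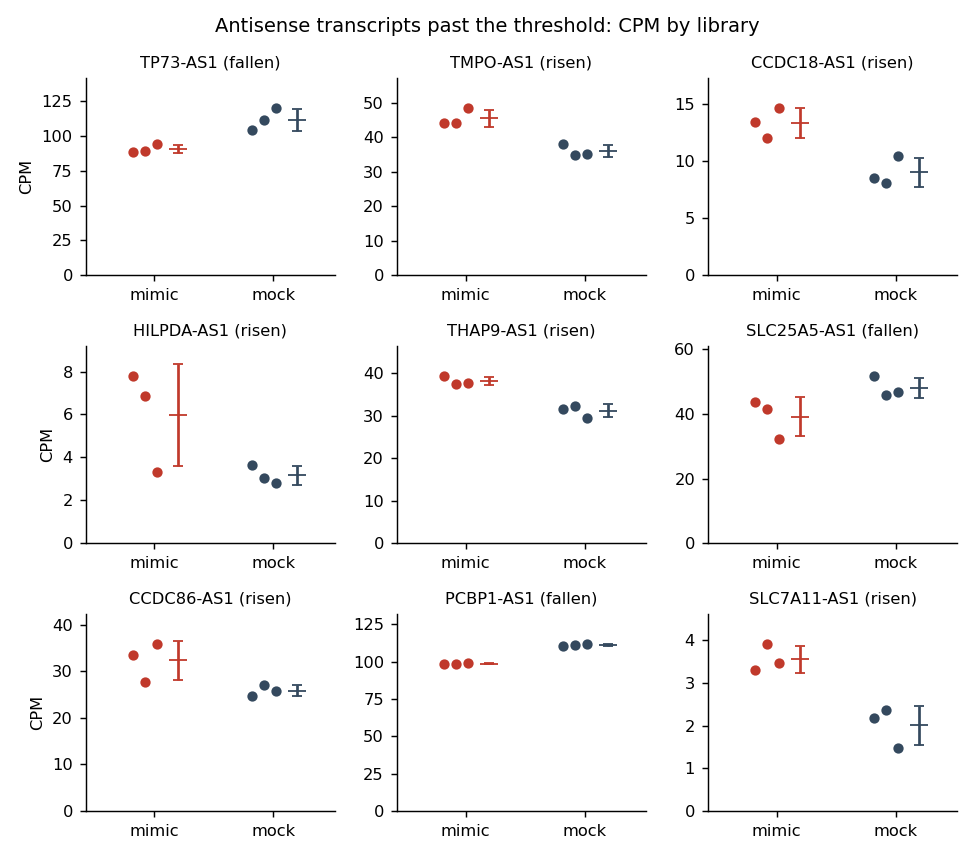
CPM of the 9 antisense genes past the threshold, 1 point per library, with the mean and SD of 3 libraries beside the points (mimic left, mock right, axes start at 0). TP73-AS1, SLC25A5-AS1 and PCBP1-AS1 are lower in mimic, the other 6 are higher, and only in HILPDA-AS1 do the libraries of the groups overlap.

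The sense partners passed the threshold about as often as other coding genes. Of 209 antisense genes with a counted partner, 201 had one that was tested, and these were 200 different genes. Of the 200, 10 rose and 19 fell (14.5%), beside 14.5% of all protein-coding genes, and their median log2 fold change was 0.00. No pair had its 2 genes past the threshold in opposite directions with all 6 libraries. Beside the 3 pairs above, 18 partners fell and 8 rose while the antisense gene did not pass the threshold.

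The fallen partners had varied roles. TNRC6C, a GW182 protein through which Argonaute silences its targets, was at 38.4, 42.3 and 46.0 CPM in mimic and 56.6, 66.5 and 65.7 CPM in mock, without overlap (log2 fold change -0.58 ± 0.08, adjusted p = 2.22e-08). Its antisense gene TNRC6C-AS1 was near the floor of the rule, at 1.45, 1.40 and 0.787 CPM in mimic and 1.90, 1.81 and 1.31 CPM in mock (log2 fold change -0.45, adjusted p = 0.503), groups that overlap.

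LEF1, a transcription factor of Wnt signalling, fell with a log2 fold change of -0.42 (adjusted p = 0.00134), and LEF1-AS1 had -0.43 with an adjusted p of 0.267. CD81, a tetraspanin, fell by 0.38 on the log2 scale (adjusted p = 7.91e-08), and CD81-AS1 had a log2 fold change of -0.23 (adjusted p = 0.495). SPEN, a transcriptional repressor with RNA-binding domains, was at 798 ± 34.8 CPM in mimic and 953 ± 11.8 CPM in mock (SD, n = 3 each, log2 fold change -0.26, adjusted p = 9.19e-06). SPEN-AS1, at 37.6, 42.0 and 33.2 CPM in mimic and 40.6, 35.0 and 39.3 CPM in mock, overlapped between the groups, with a log2 fold change of -0.02 (adjusted p = 0.920). FAM13B, PRDM4, STARD4, ZFHX3, ATP6V0E2, EXTL3 and KIF23, which also overlap their antisense gene in exons, fell with log2 fold changes between -0.36 and -0.18.

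The partners that rose included NEXN, an actin-binding protein, at 36.1, 30.6 and 37.1 CPM in mimic and 23.2, 22.2 and 22.5 CPM in mock (log2 fold change 0.61 ± 0.09, adjusted p = 1.29e-06). NEXN-AS1 had a log2 fold change of 0.20 (adjusted p = 0.735). BHLHE40, a repressor of the circadian clock, was at 188, 174 and 164 CPM in mimic and 128, 132 and 138 CPM in mock (log2 fold change 0.41, adjusted p = 1.49e-08). BHLHE40-AS1 was at 10.0, 6.85 and 5.19 CPM in mimic and 5.70, 5.28 and 6.23 CPM in mock, which overlap, with a log2 fold change of 0.39 (adjusted p = 0.201, and 0.0339 without the third mimic library). Without the first mimic library BHLHE40-AS1 had a log2 fold change of 0.085 (adjusted p = 0.876). CACTIN, ENTPD1, RBM26, SRRM2 and SREBF2, the last a transcription factor regulated by sterols, rose with log2 fold changes between 0.14 and 0.26. Calls of ATP6V0E2, EXTL3, KIF23, ZFHX3, CACTIN, ENTPD1, RBM26, SRRM2 and SREBF2 were lost when 1 of several single libraries was left out, with adjusted p between 0.0522 and 0.317.

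In 7 pairs the partner passed the threshold and the pair shares no exon. PITX1, a homeobox factor of limb and pituitary development, was at 36.3, 38.8 and 40.0 CPM in mimic and 25.1, 23.9 and 27.5 CPM in mock (log2 fold change 0.59 ± 0.09, adjusted p = 7.04e-07). PITX1-AS1, at 63.0, 59.7 and 64.5 CPM in mimic and 67.1, 62.3 and 66.2 CPM in mock, had overlapping groups and a log2 fold change of -0.06 (adjusted p = 0.606). PITX1-AS1 overlaps 4968 exon bases of the histone variant gene MACROH2A1, and even reads of MACROH2A1 there would be 195% of its counts. BRPF3, a scaffold of histone acetyltransferase complexes, was at 117, 107 and 118 CPM in mimic and 155, 159 and 157 CPM in mock (log2 fold change -0.47 ± 0.05, adjusted p = 2.61e-10). BRPF3-AS1 was at 3.82, 6.85 and 3.15 CPM in mimic and 3.26, 2.92 and 3.44 CPM in mock, overlapping groups in which the second mimic library was highest (log2 fold change 0.54, adjusted p = 0.162). Without the third mimic library BRPF3-AS1 rose (log2 fold change 0.72, adjusted p = 0.0370). Without the second mimic library its log2 fold change was 0.13 (adjusted p = 0.837).

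The other 5 were LCMT1, a methyltransferase of the phosphatase PP2A, CELF2, a splicing regulator, TRAM2, a protein of the endoplasmic reticulum translocon, PSMA3, a proteasome subunit, and CDKN2B, a cyclin-dependent kinase inhibitor. They fell with log2 fold changes of -0.52, -0.47, -0.21, -0.18 and -0.20, and their antisense genes had 0.10, 0.09, 0.08, 0.11 and 0.11 without passing the threshold. Calls of TRAM2 (adjusted p = 0.0541 without the second mock library), PSMA3 (up to 0.221 without the third mock library) and CDKN2B (up to 0.0920 without the first mimic library) depended on single libraries. In all 7 of these pairs the antisense value had the opposite sign to the partner's. In 17 of 22 pairs that share exons and have a partner past the threshold the signs were the same. All 7 partners without shared exons but PITX1 fell, while 66.2% of all antisense genes were above 0 in any case. Some of the antisense signs also changed when 1 library was left out. LCMT1-AS1 had -0.21 without the first mimic library, and CELF2-AS1 had -0.15 without the third mock library. CDKN2B-AS1 was at 9.36, 10.5 and 8.66 CPM in mimic and 9.22, 7.92 and 9.34 CPM in mock, which overlap. It also overlaps exons of CDKN2A, whose even reads there would be 157% of its counts and which rose (log2 fold change 0.29, adjusted p = 0.000286).

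Over all 201 pairs the antisense and sense log2 fold changes correlated with Pearson's r of 0.38 and Spearman's rho of 0.36, and 121 pairs had the same sign. The 166 pairs with an exon overlap gave r = 0.50 and rho = 0.48 with 111 of the same sign, and r = 0.46 without HILPDA-AS1. The 35 pairs with no exon overlap gave r = -0.19 and rho = -0.11 with 10 of the same sign, and among the 11 of these with an antisense mean of at least 5 CPM 1 had the same sign. The points share their libraries and scaling, and pairs with an exon overlap may share reads as well, so these are descriptions without a test. Among pairs with an exon overlap r was 0.51 both where even sense reads would make up 50% or more of the antisense counts (74 pairs) and where they would make up less (92 pairs). Spearman's rho was 0.42 in the 74 pairs and 0.53 in the 92 pairs.

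**Figure D3:**
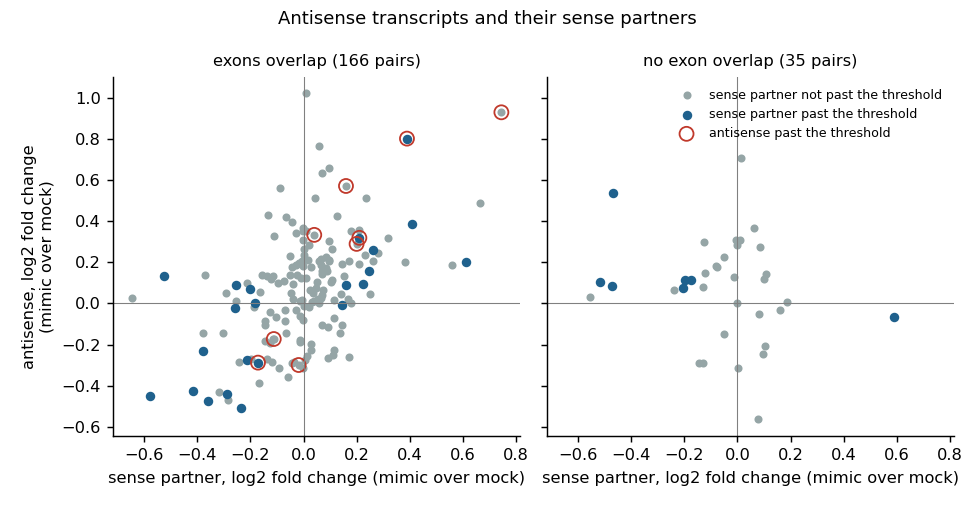
Log2 fold change (mimic over mock) of each antisense gene against that of its sense partner, for 166 pairs whose exons overlap (left) and 35 without exon overlap (right), with partners past the threshold in blue and antisense genes past it ringed in red. Points with a blue fill lie mostly in the quadrants of equal sign on the left, and all 7 lie in the quadrants of opposite sign on the right.

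As a group the antisense genes lay slightly above 0. Their median log2 fold change was 0.09 and 141 of 213 (66.2%) were above 0, against a median of 0.00 and 50.4% over all genes tested. Single values ran from -0.56 for MYRF-AS1 to 1.02 for ARHGEF7-AS2. The median was 0.09 under 5 CPM, 0.09 between 5 and 20 CPM and 0.11 from 20 CPM, against 0.04, 0.01 and -0.01 for all genes of those levels. The 27 antisense genes whose exons overlap no tested gene had a median of 0.09, with 20 above 0 and none past the threshold at an adjusted p under 0.05 (2 at an unadjusted p under 0.05). Per library, the median deviation of the 213 genes from their own mean was 0.04, 0.02 and 0.02 in mimic and -0.05, -0.03 and -0.01 in mock on the log2 scale, so all 3 mimic libraries were above all 3 mock libraries. Summed without MIF-AS1, the antisense genes took 2431, 2396 and 2408 CPM in mimic and 2310, 2344 and 2371 CPM in mock.

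Other classes of long noncoding RNA were named by symbol, and the larger ones also had a median above 0. The 61 divergent transcripts, whose symbols end in DT and which start opposite a gene's promoter, had a median log2 fold change of 0.15 with 42 above 0. One of them rose, C2orf74-DT, at 14.7 ± 0.911 CPM in mimic and 9.67 ± 0.583 CPM in mock (adjusted p = 0.000917). The 84 genes with a LINC symbol, which lie between coding genes, had a median of 0.14 with 57 above 0, and LINC00174 rose, at 13.5 ± 0.658 CPM in mimic and 9.36 ± 1.15 CPM in mock (adjusted p = 0.00809). The 3 antisense genes whose symbol has no number had a median of -0.16 with 1 above 0, and the 2 overlapping transcripts (OT symbols) had 0.003 with 1 above 0. No test of a class was made.

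**Figure D4:**
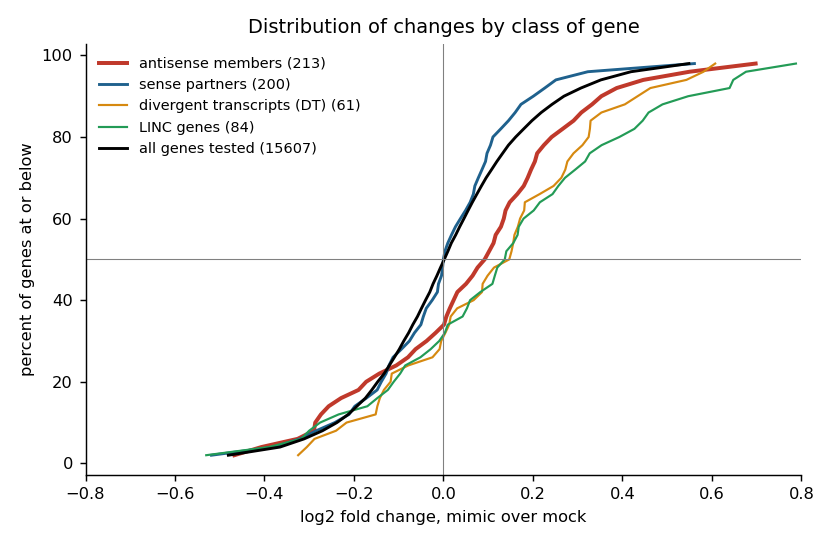
Cumulative distribution of log2 fold changes (mimic over mock), as the percent of genes at or below each value, for the 213 antisense genes, 200 sense partners, 61 divergent transcripts, 84 LINC genes and all 15607 genes tested. The antisense, divergent and LINC curves cross 50 percent to the right of 0, at 0.09, 0.15 and 0.14, and the sense partners cross it at 0.00.

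Of the 29 genes listed for nuclear RNA surveillance, the machinery that degrades promoter-derived and antisense RNA, 1 rose and 1 fell (6.90%, against 13.0% of all genes), with a median log2 fold change of -0.02. ZC3H18, which links the cap-binding complex to the exosome, was at 150 ± 14 CPM in mimic and 131 ± 1.62 CPM in mock (log2 fold change 0.20, adjusted p = 0.00852). WDR82, a subunit of a complex that ends early transcription, was at 125 ± 4.48 CPM in mimic and 143 ± 3.19 CPM in mock (log2 fold change -0.20, adjusted p = 0.00676). The subunits of the exosome itself did not pass the threshold, with EXOSC5 nearest at -0.20 (adjusted p = 0.0756).

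Antisense genes were usually lower than their partners. Their median level was 14.7% of the partner's CPM and 32.4% of its level per kilobase of exon, over 209 pairs and the mean of all libraries. Per kilobase the median was 28.3% where exons overlap, 26.2% for head-to-head pairs and 92.1% for pairs that overlap in introns only. In 31 pairs the antisense gene was above its partner by CPM and in 48 pairs per kilobase. HORMAD2-AS1, GPR84-AS1 and CALCRL-AS1 exceeded their partners most by CPM, and HORMAD2, GPR84 and CALCRL had a mean under 0.2 CPM in both groups. At the other end SRRM2-AS1 was at 0.145% of SRRM2, a scaffold of nuclear speckles at 2042 CPM in mimic and 1825 CPM in mock, IRS4-AS1 at 0.897% of IRS4, an adaptor of insulin signalling, and KTN1-AS1 at 0.909% of KTN1, a kinesin receptor.

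**Figure D5:**
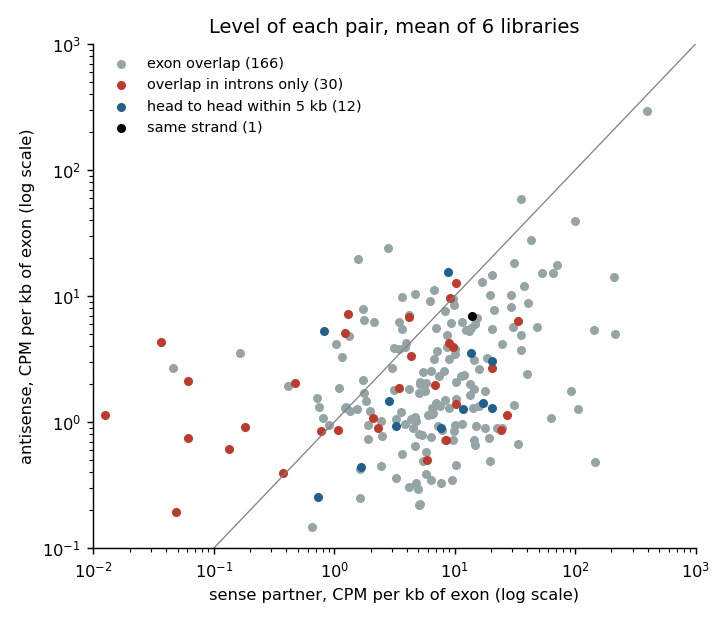
Level of each of 209 antisense genes against that of its sense partner, both in CPM per kilobase of exon averaged over the 6 libraries on log axes, coloured by position, with the line of equal level. Most points lie below the line, and those that overlap their partner in introns only lie on both sides of it.

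The most abundant antisense genes were, after MIF-AS1 at 438 CPM over all libraries, PCBP1-AS1 at 105 CPM and TP73-AS1 at 101 CPM. The counts of MIF-AS1 were within 2 of those of MIF in every library, so its level cannot be told from that of MIF. MIF-AS1 did not pass the threshold, at 498, 519 and 440 CPM in mimic and 345, 364 and 461 CPM in mock (log2 fold change 0.32 ± 0.14, adjusted p = 0.255). The groups overlapped, since the third mock library was above the third mimic library. Without the third mock library the value was 0.45 with an adjusted p of 3.56e-07. Leaving out any other single library gave an adjusted p between 0.269 and 0.470. ZNF225-AS1, PITX1-AS1, MCM3AP-AS1, SPAG5-AS1, PSMA3-AS1, MRPL20-AS1 and HOXB-AS1, between 44.9 and 83.6 CPM, had log2 fold changes between -0.06 and 0.13, and none passed the threshold.

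Several antisense genes lay just outside the threshold. NOP14-AS1, opposite a factor of ribosome assembly, was at 44.2, 40.1 and 48.3 CPM in mimic and 36.8, 39.6 and 36.7 CPM in mock, without overlap (log2 fold change 0.22 ± 0.08, adjusted p = 0.0547, and 0.0209 without the second mimic library). ARHGEF7-AS2 had the largest log2 fold change, 1.02 ± 0.37, with an adjusted p of 0.0551, at 2.11, 2.51 and 1.89 CPM in mimic and 1.09, 1.25 and 0.820 CPM in mock, which do not overlap. AGAP2-AS1 was at 5.93, 6.71 and 5.51 CPM in mimic and 9.63, 6.81 and 8.85 CPM in mock, without overlap (log2 fold change -0.47 ± 0.18, adjusted p = 0.0682, and 0.0277 without the second mock library). Without the first mock library the adjusted p of AGAP2-AS1 was 0.325. TENM3-AS1 had 0.43 (adjusted p = 0.0720) and ATP6V0E2-AS1 -0.27 (adjusted p = 0.0824), both without overlap between the groups. ATP6V0E2, a subunit of the proton pump of lysosomes, fell with a log2 fold change of -0.21 (adjusted p = 0.0247).

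Last, the ratio of antisense to sense CPM within each library was compared for the 201 pairs. The mimic and mock ratios did not overlap in 33 pairs (16.4%), against 25.0% of 1558 pairs of protein-coding genes with exons that overlap on opposite strands. These sets of pairs were not matched for level, and the antisense genes were low, with a median of 4.57 CPM. The lower share can therefore not be read as a trait of antisense pairs. With 3 libraries a group the smallest p an exact two-sided permutation test can give is 0.1, so no single ratio could pass a threshold of 0.05.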

How the data were processed

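RNA-seq of 6 cultures of 293T cells was used, 3 per group, grouped by title. For each library the authors deposited raw counts per Ensembl gene ID, whole numbers that were not scaled. STAR, edgeR and hg19 appear in the submitters' processing notes, without versions or roles. Which program counted the reads, with which annotation and strand setting, is not given there.

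Counts were filtered with filterByExpr (15607 genes, 99.7% of counts) and scaled by TMM factors (0.994 to 1.01). The main test was edgeR's two-sided quasi-likelihood test with the group only. CPM values use the scaled library sizes, errors of CPM are SDs, and errors of log2 fold changes are SEs. On simulated data with 200 changed genes this test recovered 75% of 1.5-fold and 90% of 2-fold changes (15614 genes tested, 9 false calls). The changed genes were drawn from all levels down to about that of the rule, with the same variation for every gene. These rates therefore need not hold for the antisense genes, most of which are low. R 4.3.3 ran edgeR 4.0.16 (with limma 3.58.1) and DESeq2 1.42.0. Positions, exon overlaps and seed sites came from GENCODE release 29 (GRCh38), whose build differs from the authors'. Of the members, 60 have another name there. Ratios used a pseudocount of 0.1 CPM.

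Members and lists were chosen with earlier results of these data known. Named were all members past the threshold, those whose partner passed it, the 12 most abundant, 5 with the largest change and 5 with the smallest p among the rest, and 3 at each end of the antisense to sense ratio. Some genes that this rule names are not reported here. Same-numbered libraries did not deviate together (correlations 0.04, -0.05 and -0.02), so no pairs were assumed. Alternatives were DESeq2, RLE factors, other filters, a replicate block, leaving out each library and other member rules. No duplicate reads could be removed.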

Additional observations from a re-analysis of the deposited data

How the results depend on the processing

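No named gene past the threshold changed sign under any alternative, and 31 named genes crossed the threshold under at least 1. TP73-AS1 and TMPO-AS1 stayed past it under every alternative that tested them. With DESeq2, 945 of all genes passed (468 risen, 477 fallen), 2 antisense genes (1 risen, 1 fallen) and 19 partners (5 risen), but DESeq2 gave an adjusted p to 77 of the antisense genes only. CCDC18-AS1, CCDC86-AS1, PCBP1-AS1, SLC25A5-AS1 and THAP9-AS1 were given one and did not pass (DESeq2 adjusted p between 0.0702 and 0.146). Leaving out 1 library gave 1302 to 2061 genes (689 to 1080 risen, 613 to 981 fallen), 4 to 10 antisense genes (2 to 8 risen, 1 to 3 fallen), 19 to 35 partners (5 to 14 risen) and 48 to 61 pairs with ratios that do not overlap, which fewer libraries make more frequent. The lowest counts of antisense genes were 4 without the first mimic library and 5 without the first mock library. The 46 antisense genes with no exon overlap with their partner, and the 27 with none with any tested gene (a choice made after seeing the data), gave 0 calls (0 risen, 0 fallen), so every call rests on a gene that can share reads. The estimated share differs between them, and for TP73-AS1 even reads of TP73 would be 2.93% of its counts. The median log2 fold change of the antisense genes stayed above 0, from 0.05 without the second mimic library to 0.11 at a mean of at least 5 CPM. With the replicate number as a block (replicate block), 1819 genes, 8 antisense genes and 27 partners passed, and SLC7A11-AS1 did not (adjusted p = 0.0543). Antisense genes under 5 CPM, 114 of 213, are limited by depth.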

Other observations

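GPAT4-AS1, SLC25A21-AS1, MORF4L2-AS1 and KLF3-AS1, chosen by the size of their change or by p among genes not past the threshold, were all under 5 CPM and higher in all 3 mimic libraries than in any mock library. GPAT4-AS1, which lies in introns of a gene for an enzyme of triglyceride synthesis, was at 2.64, 3.07 and 3.15 CPM in mimic and 1.22, 2.09 and 2.13 CPM in mock (log2 fold change 0.71, edgeR adjusted p = 0.121), while GPAT4 had a log2 fold change of 0.01 (adjusted p = 0.937). KLF3-AS1 was at 1.98, 1.96 and 2.05 CPM in mimic and 0.949, 0.973 and 1.64 CPM in mock (log2 fold change 0.77, edgeR adjusted p = 0.177), and KLF3, a transcriptional repressor, had 0.06 (adjusted p = 0.683).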
